A study of Mus musculus with 2 samples.

Results

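Low-mitochondrial neuron-type cells are cells of the young dentate gyrus library with very little RNA from mitochondrial genes and with transcripts of neuronal structural genes. A cell was taken when its 13 mitochondrially encoded genes summed to under 100 UMIs (unique molecular identifiers, which count captured transcript molecules) per 10,000 and the ribosomal retrogene Rpl9-ps6 reached at least 10 per 10,000. At least 3 of the 4 markers Nefm, Sst, Elavl2 and Gap43 had to be detected, with fewer than 2 of 3 mesenchymal genes (Twist1, Prrx1, Fbln1) and fewer than 4 of 5 mitotic genes (Top2a, Ccnb1, Ube2c, Cenpf, Cks2). The rule chose 268 cells, 10.9% (9.68 to 12.2) of the 2463 young cells and part of 3893 cells in all. All these values were read from the cells themselves, so the level of these genes is a description and not a finding.

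The study profiled the RNA of single dentate gyrus cells from C57BL/6 mice, with 1 library from mice aged 3 months (young) and 1 from mice aged 16 months (old). The tissue was dissociated with papain, and cells that excluded propidium iodide, a dye that enters dead cells, were sorted before 10x Genomics 3' v3 capture, per the labels' protocols. The labels give Mus musculus for both libraries, and the organism of the low-mitochondrial cells was not tested. With 1 library at each age there is no replicate check: no test was made, and the intervals are exact 95% intervals that cover counting error only.

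Neurons at an early stage make neurofilaments, which stiffen the axon, and growth-cone proteins such as Gap43, which act where the axon extends. RNA-binding proteins of the Elavl family keep neuronal transcripts stable, and Stmn2 and Dcx act on microtubules of young neurons. Which kind of neuron forms is set largely by combinations of transcription factors: Emx1 and Eomes act in the forebrain lineage that yields dentate granule neurons, while Tlx3, Lmx1b, Isl1 and Pou4f1 are best known from hindbrain, spinal cord and peripheral ganglia. Sst encodes somatostatin, a peptide transmitter of many inhibitory interneurons and of some peripheral neurons. Its promoter holds a cAMP response element (CRE), to which the factor CREB binds.

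Sst is the rule marker that divided the members most, so the CRE of its promoter is shown, beside those of 4 other neuronal genes whose level was at least 2-fold higher in members than in the other low-mitochondrial cells: Scg2 (a granin of secretory vesicles), Kif5c (a kinesin motor of axonal transport), Tubb2a (a tubulin) and Celf3 (an RNA-binding protein). These 4 were chosen after their values were seen, and other genes with the CRE are not shown. Each line gives 30 bases from RefSeq's promoters of GRCm38.p6, read 5′ to 3′ on the gene's strand, with the CRE in capitals.
Sst, chr16:23890874-23890903, minus strand: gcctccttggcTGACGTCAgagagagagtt
Scg2, chr1:79440076-79440105, minus strand: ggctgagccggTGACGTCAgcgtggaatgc
Kif5c, chr2:49619249-49619278, plus strand: gatctctgcagTGACGTCAccgtgccgagg
Tubb2a, chr13:34078049-34078078, minus strand: ctctgcccccaTGACGTCAgcgggactggg
Celf3, chr3:94484208-94484237, plus strand: ggcagaagtgaTGACGTCAccacggtcgcc

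The motif TGACGTCA reads the same on both strands. It lies 48 to 41 bases before the RefSeq start of Sst, and it occurs in the 250 bases before the start of 508 of 32851 RefSeq promoters (1.55%). The GENCODE M21 model of Sst (chr16:23889573-23890958, minus strand) begins upstream of the RefSeq start, so these letters lie within that gene. The letters shown for Celf3 also lie within its GENCODE gene (chr3:94478295-94492198, plus strand), downstream of where that gene begins. Of the 280 genes at least 2-fold higher in members than in the other low-mitochondrial cells, 195 had a promoter among those searched. The CRE was in 11 of these 195 (5.64%), against 478 of all 27025 genes with a promoter (1.77%). Whether these shares differ beyond counting error was not tested. The promoters of Baz2b, Clasp2, Clstn2, Klc1, Trp53inp2 and Uncx also held the CRE. A match is a description of the sequence and not of binding.

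The members held 1762664 UMIs, with a median of 6189.5 UMIs per cell (890 to 13842) and 1709 detected genes (601 to 2679). Mitochondrial genes took a median of 0.0838% of a member's UMIs, close to the 0.0798% of the 1029 other low-mitochondrial young cells. It was 7.03% in the 45 neuroblast-type cells, immature neurons that carry mitochondrial RNA and the label of the young library. These had at least 3 of Dcx, Sox11, Neurod1, Igfbpl1 and Draxin detected. Ribosomal protein genes took 31.4% of the members' UMIs, 39.2% in the other low-mitochondrial cells and 13.2% in neuroblast-type cells. Transcripts of ribosomal protein pseudogenes summed to 114 per 10,000 in members, 142 in the other low-mitochondrial cells and 0.795 in neuroblast-type cells. Rpl9-ps6 (chr19:32465865-32466578, minus strand, GENCODE M21 on GRCm38, as for all genes placed here) had a median of 43.3 per 10,000 in members. Its transcript (714 bases) is identical to that of Rpl9 (738 bases) at 694 of 695 positions aligned without gaps, and 62 further positions are gaps. Counts of these copies therefore cannot be told apart with certainty. Members and the other low-mitochondrial cells were both chosen for low mitochondrial content and for Rpl9-ps6, so their likeness in these is fixed by the choice. In the 46 low-mitochondrial young cells without Rpl9-ps6, which had a median of 1270.5 UMIs, the pseudogenes summed to 10.3 per 10,000 and ribosomal protein genes took 6.26%. The part of ribosomal and mitochondrial content in the comparison with neuroblast-type cells was not tested.

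Over all 2463 young cells, 1401 of the 16-base cell barcodes were also in the old library, which held 1430 cells. Shared barcodes were thus not particular to low-mitochondrial cells, and nearly all old cells had one. Among members 42 of 268 (15.7%, 11.5 to 20.6) were shared, against 243 of 1029 (23.6%) in the other low-mitochondrial cells. The old partner held between 13.6% and 16.7% of the UMIs of the young one. In the old library 16 cells met the rule, and the barcode of 15 of them was that of a member. In the paired cells Nefm was at 12.3 per 10,000 in the young library and 12 in the old, Sst at 15.3 and 13.5, Elavl2 at 6.63 and 6.54, and Gap43 at 11.2 and 10.4. Dcx was at 3.17 and 2.97, and Stmn2 at 38.6 in the young and 63.5 in the old partners. Since the old cells that meet the rule carry barcodes of young cells, no comparison between ages was made. Only 42 and 243 of the 1401 shared barcodes were in the 2 low-mitochondrial groups. Most were therefore those of young cells above the mitochondrial limit. Neuroblast-type cells numbered 45 in the young library and 42 in the old, and microglia-type cells 428 in each. Which library the cells of these types with shared barcodes came from was not tested.

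The 4 markers were spread unevenly. Nefm (chr14:68082590-68124846, minus strand), the medium neurofilament chain, was detected in 97.4% of members with a median of 8 UMIs (0 to 90). Gap43 (chr16:42248442-42340651, minus strand) was detected in 94.0% with a median of 11 UMIs (0 to 87), and Elavl2 (chr4:91250763-91400785, minus strand) in 91.4% with a median of 4 (0 to 42). Sst was detected in 38.8%: 164 members had none, 65 had 1 UMI and 21 had at least 10, up to 579. Of the 3043 Sst UMIs, 2385 (78.4%) came from the 9 members with at least 100. The summed Sst level of 17.3 per 10,000 (16.7 to 17.9) is therefore that of a few cells. In microglia-type cells, which should lack these genes, the shares were 0.234% for Nefm, 1.87% for Gap43, 0.935% for Elavl2 and 0.701% for Sst at a median of 7611 UMIs.

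Most members sat at the edge of the rule: 210 had exactly 3 markers and 58 had all 4, and in 164 of the 210 the missing marker was Sst. With at least 3 markers at 2 or more UMIs, a limit added after the data were seen, 174 members (64.9%) remained. Across the low-mitochondrial cells that pass the other conditions, Stmn2, which is no part of the rule, was at 1.29 per 10,000 with 0 markers, 1.88 with 1, 6.53 with 2, 68.7 with 3 and 78.8 with 4. The step thus lay between 2 and 3 markers, just outside and just inside the rule. Sox2, a factor of neural progenitors, was at 3.81 per 10,000 with 2 markers, 2.01 with 3 and 1.07 with 4. Vim, the intermediate filament of progenitors and mesenchyme, went from 25.8 with 2 markers to 13.0 with 3 and 15.6 with 4. A further 10 cells met all but the mesenchymal limit, 8 all but the mitotic limit, 2 all but both, and 9 all but the Rpl9-ps6 limit. No cell was left out by the mitochondrial limit alone.

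**Figure D1:**
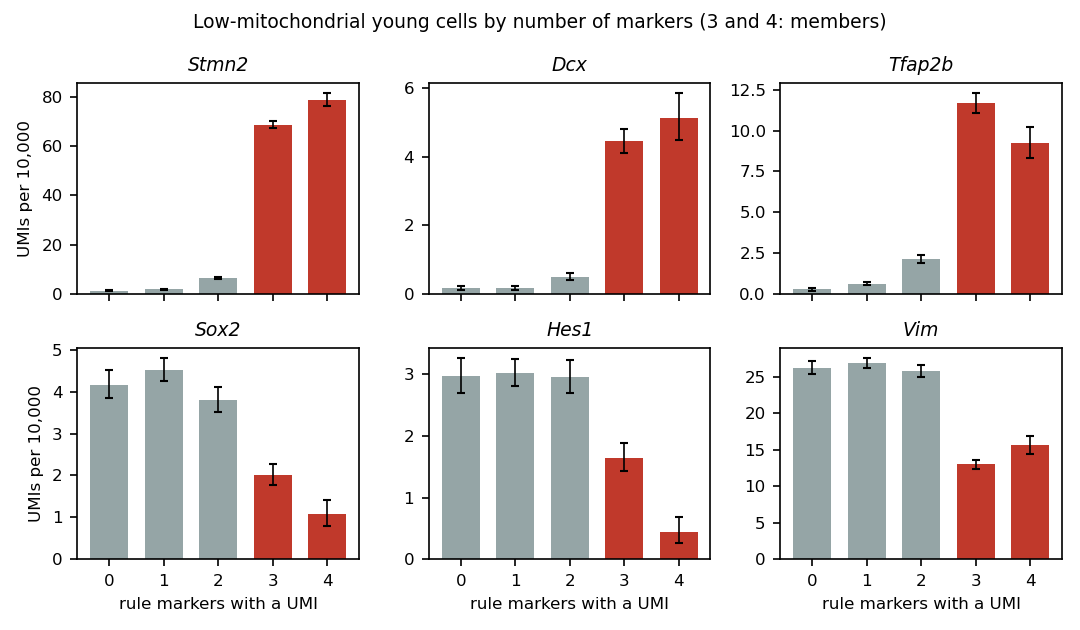
Summed UMIs per 10,000 (y axes, linear, from 0) of 6 genes outside the rule against the number of the 4 rule markers detected (x axes), in young low-mitochondrial cells that meet the other conditions. Red bars are members, grey bars are cells just outside, and error bars are exact 95% counting intervals; Stmn2 goes from 6.53 at 2 markers to 68.7 at 3, and Vim from 25.8 to 13.0.

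The name neuron-type was checked against 15 pan-neuronal genes that the rule does not use. Of these, 14 were found in at least 10% of members, and Syn1, a synaptic vesicle protein, was found in 4.48%. The 15 genes summed to 130 UMIs per 10,000 in members, 15.3 in the other low-mitochondrial cells, 67.6 in neuroblast-type cells and 1.74 in microglia-type cells. Stmn2 alone gave 71.1 of the sum in members, and Dcx, also in the list, is one of the genes that chose neuroblast-type cells. Gene by gene, 4 of 13 tested were higher in members than in neuroblast-type cells and 6 lower. By this the sum does not rank the 2 groups. By cell the sum ran from 2 to 432, with a median of 178, so some members held almost none of it. The markers of microglia summed to 0.601 per 10,000 in members and 0.609 in the other low-mitochondrial cells, against 436 in microglia-type cells, with C1qa at 0.0567. Endothelial markers summed to 0.0397 with 9 of 10 at 0, and Sox10, which defines Schwann cells and oligodendrocytes, was at 0.

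Against the 1029 other low-mitochondrial cells, 280 of 6180 genes (4.53%) were at least 2-fold higher in members and 70 (1.13%) at least 2-fold lower, with a median log2 ratio over all genes of 0.05. With ribosomal genes left out of the totals that median was -0.07, and the counts were 262 and 129. The counts depend on the settings: they were 58 and 3 with a pseudocount of 1 per 10,000 in place of 0.1, and 451 and 232 for members with at least 3 markers at 2 or more UMIs. Lower genes numbered 171 for members with all 4 markers and 149 without the members that had both Pax3 and Sox2. Called means at least 2-fold on the log2 scale of the level plus 0.1 per 10,000, in genes with 50 UMIs over both groups. The rule genes were left out, but the cells were chosen on expression, so genes that follow the markers had to differ. Of the pan-neuronal genes 13 of 14 tested were higher and none was lower, with a median log2 ratio of 2.36.

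Stmn2 (chr3:8509360-8561606, plus strand), a tubulin-binding phosphoprotein of growing axons, led the comparison. It was detected in 92.5% of members at 71.1 per 10,000 (69.9 to 72.4), and was at 3.09 in the other low-mitochondrial cells, a log2 ratio of 4.48. Dcx, which binds microtubules in migrating neurons, was at 4.62 per 10,000 against 0.239, a log2 ratio of 3.80. Rtn1, a reticulon of the neuronal endoplasmic reticulum, was at 2.83 against 0.126 (log2 ratio 3.70). The vesicle protein Syt1, a calcium sensor of transmitter release, was detected in 79.9% of members at 4.2 per 10,000 against 0.802, and Snap25, which drives vesicle fusion, in 50.0% at 1.29 against 0.148. Of the neurofilament and microtubule list 19 of 24 tested genes were higher (median 1.61), and of the synaptic vesicle list 8 of 10 (median 1.32). No gene of either list was 2-fold lower.

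**Figure D2:**
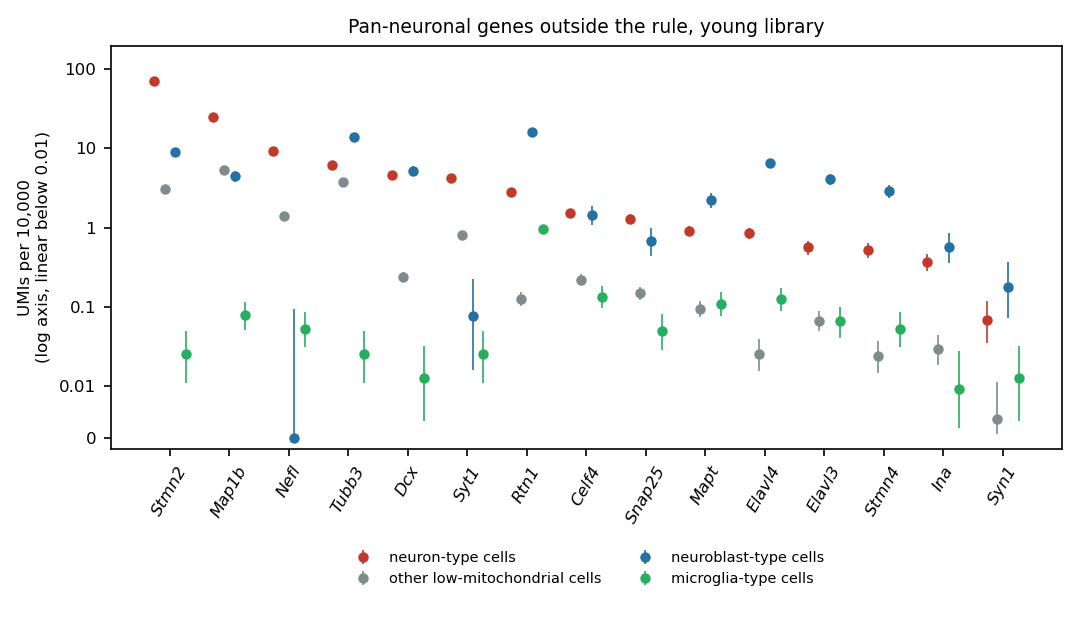
Summed UMIs per 10,000 (y axis, log scale, linear below 0.01) of 15 pan-neuronal genes outside the rule in 4 groups of young cells. Points are levels and bars exact 95% counting intervals; members lie above the other low-mitochondrial cells for each gene shown, and below neuroblast-type cells for Rtn1 (2.83 against 16.3) and Elavl4 (0.851 against 6.46).

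Adhesion molecules of axons were also higher. Of 13 tested genes of the growth cone and adhesion list 8 were called, with a median log2 ratio of 1.60. Cntn1, a contactin on axon membranes, was at 0.851 per 10,000 against 0.0251, and Ncam1 at 2.5 against 0.302. Basp1, a growth-cone membrane protein, was at 37.8 against 9.02. Of 19 guidance genes tested 4 were higher, with a median of 0.13, near that of all genes. They included the Slit receptors Robo1 (0.738 against 0.274) and Robo2 (0.703 against 0.0653) and the netrin receptor Dcc (0.357 against 0.0804). Scn3a, a sodium channel of immature neurons, was at 0.692 against 0.0779.

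Neuronal RNA-binding proteins and factors followed. Of 20 RNA-binding genes tested 7 were higher (median 0.60), among them Celf3 at 1.12 per 10,000 against 0.0478 and Srrm4, a neuronal splicing regulator, at 0.584 against 0.0339. Of the Onecut, Ebf and related factors 11 of 19 were higher (median 1.67). Onecut2 was detected in 66.0% of members at 3.96 per 10,000 against 0.211, and Ebf1 in 63.4% at 2.78 against 0.150. Insm1, a zinc-finger factor of newborn neurons and endocrine cells, was detected in 55.2% at 2.52 against 0.199. Sox4 and Sox11, factors of early neurons, were found in 99.3% and 98.5% of members at 45.6 and 24.5 per 10,000, against 11.2 and 7.66.

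The genes that were lower included genes of cell division and of progenitors. Members had to lack 2 or more of the mitotic genes of the rule, so this follows in part from the choice. Of 13 tested genes of the proliferation list 6 were lower (median -0.81), with 1 higher, Stmn1 (40.7 per 10,000 against 17.2), a microtubule destabiliser that neurons also express. Cdc20, an activator of the anaphase-promoting complex, was at 0.0113 per 10,000 against 0.441, the lowest log2 ratio at -2.28. Of 16 progenitor genes 6 were lower and none higher (median -0.90): Sox2 was at 1.78 against 3.99, Hes1, a Notch target, at 1.35 against 2.81, and Vim at 13.6 against 28.2. Of 6 mesenchymal genes 3 were lower (median -0.74).

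Some factors of hindbrain, spinal cord and peripheral neurons were found in many members. Of 32 spinal and hindbrain interneuron factors 10 were found in at least 10% of members, and of 19 sensory ganglion genes 4. Against the other low-mitochondrial cells 7 of 13 tested genes of the first list were higher (median 1.08) and 5 of 6 of the second (median 2.49). Genes of the granule neuron lineage, that of the labelled tissue, were present too: 8 of 20 were found in at least 10% of members, and 5 of 9 tested were higher (median 1.22). That list summed to 80 per 10,000 in members, of which Sox4 and Sox11 gave 45.6 and 24.5, against 21.4 in the other low-mitochondrial cells and 259 in neuroblast-type cells. Sox11 is one of the genes that chose neuroblast-type cells, so their sum follows in part from the choice. With the genes of both rules left out, 8 of the 10 tested genes of the list were lower than in neuroblast-type cells and none higher (median -4.57). Tfap2b, an AP-2 factor of neural crest and of hindbrain and spinal neurons, was detected in 72.4% of members at 11.1 per 10,000 (10.6 to 11.6), and in none of the 45 neuroblast-type cells. It was not particular to members among low-mitochondrial cells: 69.7% of the 122 mesenchymal-type cells had it, at 3.80 per 10,000. Tlx3, a selector of excitatory sensory neurons in spinal cord and hindbrain, was detected in 55.6% of members at 2.73 per 10,000. Lmx1b, a factor of dorsal spinal and serotonergic neurons, was found in 25.7% of members, Pou4f1, a factor of sensory neurons, in 19.4% and Isl1, of motor and sensory neurons, in 10.8%. Tlx3, Lmx1b, Pou4f1 and Isl1 had no UMI in neuroblast-type or microglia-type cells.

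En1 and En2, homeodomain factors of the midbrain-hindbrain boundary, were in 53.7% and 47.8% of members. The other low-mitochondrial cells had them in 52.2% and 45.9%, with log2 ratios of 0.13 and 0.03, close to the median of all genes. Hox genes, which mark hindbrain and trunk levels, were almost absent: 5 of 9 in the table were at 0, and Hoxb8 had 10 UMIs in all. Forebrain factors were uneven. Of 27 in the list 8 were at 0 in members and 8 were found in at least 10% of them. The list summed to 5.93 per 10,000 in members, 7.29 in the other low-mitochondrial cells and 23.6 in neuroblast-type cells. Emx1, Eomes, Neurod2 and Neurod6 had no UMI in the 268 members, and were detected in 60%, 60%, 44.4% and 44.4% of neuroblast-type cells. A count of 0 allows a level of up to 0.017 per 10,000 and a UMI in up to 1.12% of members, a limit on detection and not on the share of cells that express the gene. Prox1, which specifies granule neurons, was found in 15.7% of members at 0.295 per 10,000, and in 84.4% of neuroblast-type cells at 3.72. Gata3 had 3 UMIs and Prph, a filament of peripheral neurons, had none. Lists of peripheral genes were also higher than in the other low-mitochondrial cells, but they share genes with the lists above. Of the sympathetic and enteric list 3 of 3 tested genes were higher (median 3.14), with a sum of 7.32 per 10,000 against 0.77. Its highest log2 ratio, 3.73, was also the highest of the spinal and hindbrain list. Of the neural crest and Schwann list 2 of 3 tested genes were higher (median 2.55), with a sum of 12.6 against 1.77. Tfap2b, at 11.1 per 10,000, gave most of that 12.6.

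**Figure D3:**
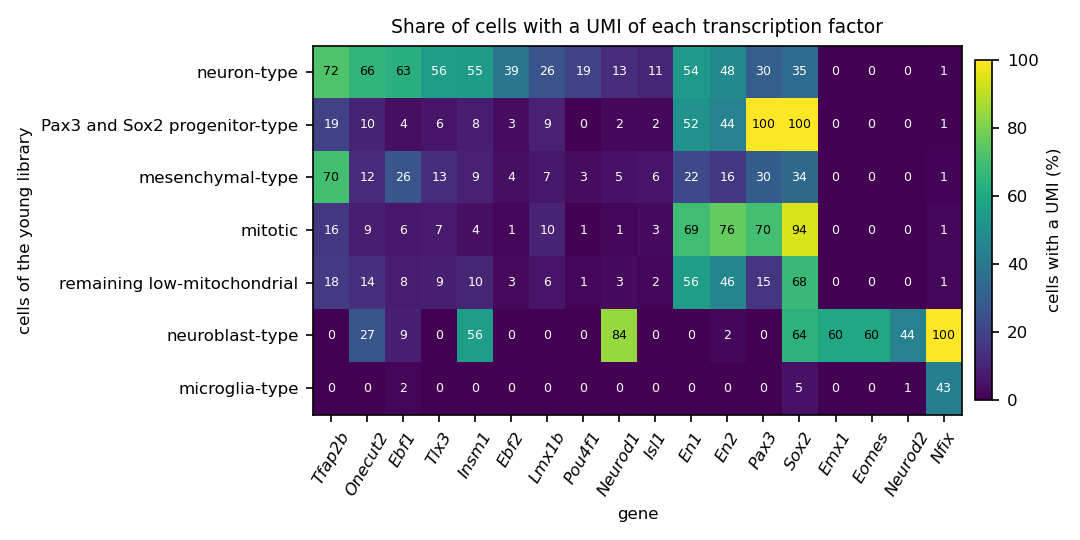
Percent of cells with a UMI (colour and printed value) of 18 transcription factors (columns) in 7 groups of young cells (rows). Members share Tfap2b with mesenchymal-type cells (72.4% and 69.7%) and En1 with the other low-mitochondrial groups, while Emx1, Eomes and Neurod2 are found in neuroblast-type cells and not in members.

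Detection depends on depth, so shares were also taken after each cell was thinned to 3000 UMIs, which left out 15 members and 4 neuroblast-type cells. Tfap2b was then detected in 65.6% of members, Tlx3 in 44.3%, Onecut2 in 52.6% and Ebf1 in 46.6%. In the progenitor-type cells (Pax3 and Sox2 both detected) these shares were 9.04%, 4.08%, 5.25% and 1.75%.

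Against neuroblast-type cells, 914 of 3973 genes (23.0%) were at least 2-fold higher in members and 1055 (26.6%) at least 2-fold lower, with a median log2 ratio of -0.02. Without ribosomal genes in the totals the median was 0.26 and the counts were 1164 and 897, and with a pseudocount of 1 they were 345 and 487. A minimum of 10 UMIs per gene gave 3730 lower. With called genes this common, a single call says little about the members. Of the 15 highest genes 5 are named as ribosomal protein genes or their copies (Rpl39l, Rpl13a-ps1, Rpl36a-ps1, Rps12-ps3 and Rps27rt) and 6 are gene models with a Gm number. Rpl39l was at 34.1 per 10,000 in members and 43.2 in the other low-mitochondrial cells, and had no UMI in neuroblast-type cells (at least 444-fold higher against a floor of 3 UMIs over the group). The others were Tfap2b (at least 144-fold), Nefl (at least 120-fold), Id3 (at least 60.3-fold), an inhibitor of basic helix-loop-helix factors, and Wdr89 (17.3 per 10,000 against 0.282). Of the 86 named genes, 11 share at least 50% of the 31-base words in their 3' end with another gene, and their counts are uncertain. They are 6 of the Gm models, Rpl36a-ps1, Rps12-ps3, Rps27rt, Cdk2ap1 and Chchd2.

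The light neurofilament chain Nefl was in 90.7% of members at 9.20 per 10,000 and had no UMI in neuroblast-type cells. Nefm was in 4.44% of neuroblast-type cells. Syt1 was at 4.2 per 10,000 against 0.0769, and Map1b, a microtubule protein of growing axons, at 25.3 against 4.44. Other neuronal genes went the other way: Elavl4 was at 0.851 against 6.46, Elavl3 at 0.562 against 4.05, Stmn3 at 0.0511 against 5.26, Gria2, a glutamate receptor subunit, at 0.834 against 9.46, and Ncam1 at 2.5 against 7.87. Of 13 pan-neuronal genes tested 4 were higher and 6 lower (median -0.52), so the list had no common direction in this comparison.

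The lowest ratios were for nuclear factor I genes, which act in late differentiation of forebrain neurons and glia. Nfix was at 0.0113 per 10,000 in members against 30.6 in neuroblast-type cells (log2 ratio -8.11), Nfib at 0.0908 against 42.7 and Nfia at 0.233 against 18.9. The other low-mitochondrial cells had them at 0.0126, 0.114 and 0.527. Further genes were low in both low-mitochondrial groups though most brain cells have them. Of 114 non-ribosomal genes found in at least 80% of neuroblast-type and of microglia-type cells, 75 were found in at least 80% of members and 9 in under 10%. All 9 were under 10% in the other low-mitochondrial cells too. They include Clk1, Selenof, Uqcrh, Chchd2, Cd81, Psap, Bsg and Ier2, named here after their values were seen. Uqcrh, a subunit of respiratory complex III, was in 1.87% of members, 86.7% of neuroblast-type and 80.6% of microglia-type cells.

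Secretory and transmitter genes gave a partial picture. Scg3, a granin that loads secretory granules, was in 64.9% of members at 2.66 per 10,000 against 0.211 in the other low-mitochondrial cells, and Chga, another granin, in 38.4% at 1.04 against 0.0515. Adcyap1, the precursor of the neuropeptide PACAP, was in 33.6% at 0.789 against 0.0314. Of 7 peptide and granin genes tested 6 were higher (median 2.45). Of the 26 such genes with a column, 9 were at 0 in members, among them Npy, Cck and Gal, while Tac1 had 9 UMIs and Penk 4.

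The vesicular glutamate transporter Slc17a6 (chr7:51622006-51671119, plus strand) had 99 UMIs in members, at 0.562 per 10,000 against 0.00503, and was not found in microglia-type cells. Slc17a7 had none. Gad1, Gad2 and Slc32a1, genes of GABA synthesis and loading, had 5, 7 and 2 UMIs. With 1 UMI as the limit, 54 members (20.1%, 15.5 to 25.5) were excitatory, 9 (3.36%, 1.55 to 6.28) inhibitory, 4 (1.49%) both and the remaining 75% (69.4 to 80.1) neither. The same classes took 2.10% and 0.935% of microglia-type cells. The inhibitory share rests on single UMIs: with a limit of 2 UMIs, 26 members (9.70%) were excitatory and 1 (0.373%) inhibitory, and after thinning the shares were 14.6% and 1.19%. Excitatory members held Ebf2 (77 UMIs in 54 cells) and Meis2 (190), a homeodomain factor, where the 9 inhibitory members held 0 and 1. In these 9 cells Wnt4 was at 2.82 per 10,000 and Sox2 at 4.23, against 0.115 and 0.315 in excitatory members. Pax3 and Sox2 were both detected, without Isl1, in 4 of the 9 inhibitory and 2 of the 54 excitatory members, so the classes differ in this make-up too. Of 2356 genes tested between these classes 357 (15.2%) were 2-fold higher in excitatory members and 93 (3.95%) lower. Acetylcholinesterase (Ache) was found in 19.4% of members and Ddc, which makes monoamines, in none.

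The members were put into subsets that were made after the data were seen, in the order Isl1 detected (29 cells), Pax3 and Sox2 both detected (51) and the rest (188). In 2 of the Isl1 cells Pax3 and Sox2 were both detected too. The genes that define a subset describe it and are not results, and a cell can miss a gene through depth: median UMIs were 7131, 8021 and 5715.

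The 29 Isl1 cells carried most of the Sst. They held 2936 of the 3043 UMIs (96.5%), with a median of 53 per cell, a lowest value of 0 and a highest of 579, and Sst was found in 25 of 29. The 21 members with at least 10 Sst UMIs were all Isl1 cells. In the 239 members without Isl1 the highest count was 9. Among the other low-mitochondrial cells 2 had at least 10 Sst UMIs. Both had Isl1 and all 4 markers, and both were left out for mesenchymal genes. Of the 25 other low-mitochondrial cells with Isl1, 3 had Sst. The plot of the 4 markers by cell shows the Isl1 cells apart from both other subsets for Sst. For Nefm and Gap43 their medians lay above those of the Pax3 and Sox2 cells but not above those of the remaining members. The median of Elavl2 was 10 UMIs in Isl1 cells, 1 in Pax3 and Sox2 cells and 5 in the remaining members.

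**Figure D4:**
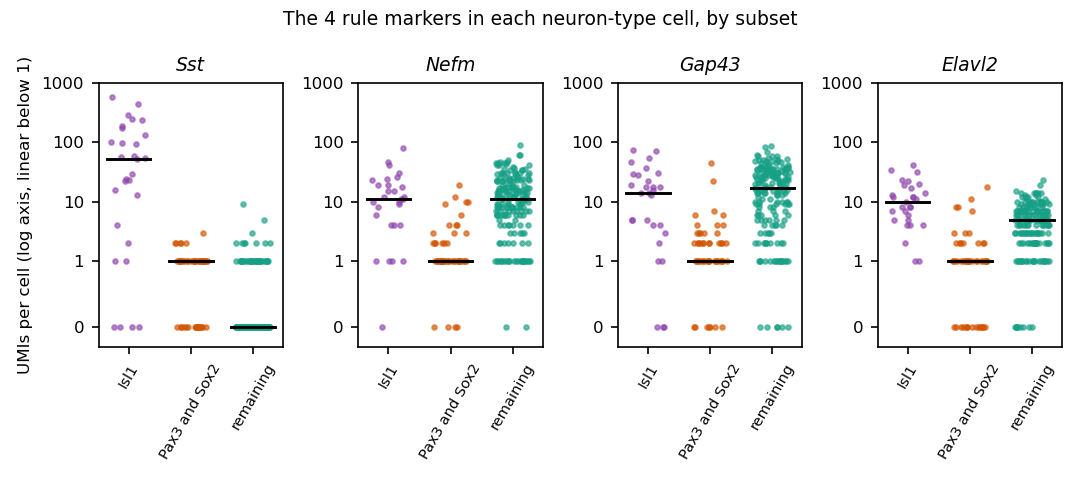
UMIs per cell (y axes, log scale, linear below 1) of the 4 rule markers in each of the 268 members by subset; points are cells spread sideways at random and black lines are medians. Sst has a median of 53 in Isl1 cells and 0 in the remaining members, and in Pax3 and Sox2 cells the median of each marker is 1.

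Isl1 cells and the 188 remaining members also differed in other genes. Of 4171 genes tested 76 (1.82%) were 2-fold higher in Isl1 cells and 293 (7.02%) lower, over a median log2 ratio of -0.16. Actc1, the cardiac actin that is also made transiently by some embryonic cells, was at 18.4 per 10,000 (16.7 to 20.2) in Isl1 cells and 0.396 (0.286 to 0.533) in the remaining members. Neurod1 was at 8.86 against 0.239 and was found in 62.1% of Isl1 cells and 6.91% of the others. Neurog1, a proneural factor of sensory ganglia, was at 1.63 against 0.0828, Tfap2d at 1.03 against 0.0092, and Nr2f2, a nuclear receptor, at 4.06 against 0.442. Pou4f1 was in 51.7% of Isl1 cells and 19.1% of the remaining members. Cadm1, an adhesion molecule, was at 17.2 against 2.46, and Basp1, a growth-cone protein, at 73.4 against 42.3. The collagen gene Col1a2 was found in 37.9% of Isl1 cells at 1.07, against 9.57% at 0.359.

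Other genes were lower in Isl1 cells than in the remaining members. Lmx1b was in 3.45% of Isl1 cells and 35.1% of the remaining members, and En2 in 13.8% and 54.8%. Nr4a2, a nuclear receptor of dopamine neurons, had no UMI in Isl1 cells and was at 0.8 per 10,000 in the remaining members. Hes1, a repressor that acts downstream of Notch, was at 0.0428 against 0.644. Tfap2b was in 86.2% of Isl1 cells and 81.9% of the remaining members, with levels of 7.14 and 15.8. Crabp1, a retinoic acid binding protein, was at 4.19 against 9.88, Cited1, a transcriptional coactivator, at 0.471 against 2.65, and Meis2 at 1.71 against 4.85. Meis2 was nevertheless found in more of the Isl1 cells (62.1%) than of the remaining members (34.6%). Slc17a6 was in 27.6% of Isl1 cells and 25.5% of the remaining members, a gap within the counting intervals. Olfr912, annotated as an odorant receptor, was in 6.90% of Isl1 cells and 44.7% of the remaining members. Cadm1, Basp1, Col1a2, Cited1, Slc17a6 and Olfr912 were named in this comparison after their values were seen. The medians of Nefm were 11 UMIs in both subsets, those of Gap43 were 14 and 17, and those of Elavl2 were 10 and 5.

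The 51 cells with Pax3 and Sox2 stood apart from the other members. Their pan-neuronal genes summed to 24.7 per 10,000, against 131 in Isl1 cells and 172 in the remaining members, and 13.5 in the 355 progenitor-type cells outside the rule. Nefm, Gap43 and Elavl2 had a median of 1 UMI each. Of these cells 6 had at least 3 markers at 2 or more UMIs, against 24 of 29 Isl1 cells and 144 of 188 remaining members. A Sst UMI was found in 66.7% of them, in 28 cells as a single UMI, and the rule favours such cells since it takes any 3 of the 4 markers. Hes1 was at 3.78 per 10,000, Tpbg at 6.7, Zic1 at 3.91 and Zfp36l1 at 4.89, and in the progenitor-type cells outside the rule they were at 3.48, 5.70, 3.42 and 6.25. Stmn2 was at 8.24 against 2.05 in those cells, Dcx at 0.43 against 0.185 and Ebf1 at 0.0905 against 0.0716. Emx2, which is expressed in dorsal forebrain and other tissues, was at 2.06 against 1.05. Of 4463 genes tested against the remaining members 148 (3.32%) were 2-fold higher and 495 (11.1%) lower. Wnt4, a secreted signal, had the highest ratio, at 2.17 per 10,000 against 0.156, and was found in 25.5% of the Pax3 and Sox2 cells. Among the lower genes Cntn1, an axonal adhesion molecule, was at 0.0226 against 1.22, and Nsg2, a vesicle protein of neurons, at 0.0226 against 1.35. Because their pan-neuronal genes, which the rule does not use, were this low, these 51 cells are called by their genes.

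**Figure D5:**
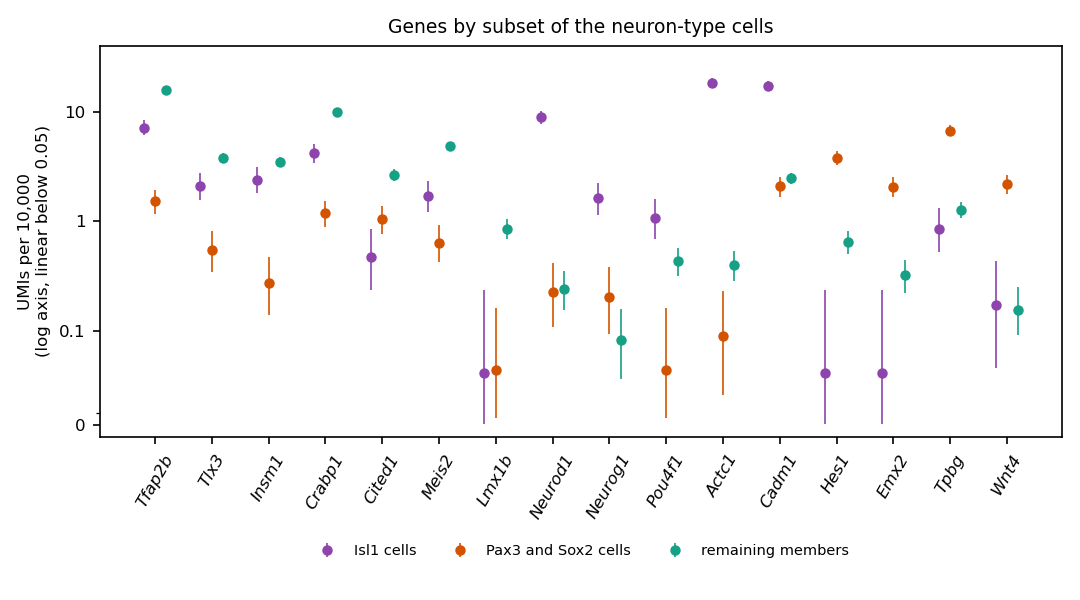
Summed UMIs per 10,000 (y axis, log scale, linear below 0.05) of 16 genes in the 3 subsets of the members; points are levels and bars exact 95% counting intervals. Neurod1 and Actc1 are at 8.86 and 18.4 in Isl1 cells, Tfap2b is at 15.8 in the remaining members, and Hes1 is at 3.78 in cells with Pax3 and Sox2.

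Detection in the same cells was set beside the count that the product of the shares gives. Of the 149 members with Tlx3, 138 had Tfap2b, 128 had Onecut2, 118 had Insm1 and 52 had Lmx1b, where the product of the shares gives 108, 98.4, 82.3 and 38.4. With Tlx3, 25 had Sox2 and 22 had Pax3, where it gives 52.3 and 45. Of the 29 with Isl1, 25 had Tfap2b, 18 had Neurod1, 15 had Pou4f1 and 12 had Neurog1, where the product gives 21, 3.68, 5.63 and 2.38. After thinning, Isl1 and Tfap2b were together in 11 cells where the product gives 11.8, and Isl1 and Neurod1 in 13 where it gives 1.85. Of the 58 members with Hes1, 44 had Sox2, 19 had Tfap2b and 8 had Tlx3, where the product gives 20.3, 42 and 32.2. The remaining 188 members had Tlx3 at 3.76 per 10,000, Insm1 at 3.47 and Ebf1 at 3.26, against 0.543, 0.272 and 0.0905 in the Pax3 and Sox2 cells.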

How the data were processed

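The authors deposited 1 value per gene and cell on the natural log scale, ln(1 + UMIs per 10,000), for 17592 genes. Reads were processed with Cell Ranger 5.0.0 against mm10, per the submitters' processing notes; the sources used here do not give their filters on cells or doublets. Undoing the log gave whole UMIs (within 0.01 UMI) for 100% of 7332863 nonzero values, so levels are summed UMIs per 10,000 summed UMIs.

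Cells of the young library were chosen by the rule in the text. The members and the 37 gene lists were chosen with earlier results of these data known. Log2 ratios used a pseudocount of 0.1 per 10,000 and genes with 50 UMIs over both groups (20 between excitatory and inhibitory members and between subsets). Named genes were the 15 highest and 10 lowest ratios of each comparison, 8 each way within members, and list genes found in 10% of members or defining a type and near 0. Some of them are not reported here. Intervals are exact (Poisson or Clopper-Pearson, 95%), and a count of 0 was given a floor of 3 counts. Scrublet (scanpy 1.11.5) called 37 young cells (1.50%) as doublets, 5 of them members; they were kept. Ratios and intervals were tested on simulated data. Other settings were another pseudocount, gene minimum, total and choice of cells. Python 3.11.15, numpy 2.4.6, scipy 1.17.1 and pandas 2.3.3 were used.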

Additional observations from a re-analysis of the deposited data

How the results depend on the processing

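The number of members was 246 to 277 with other mitochondrial or Rpl9-ps6 limits or without doublets, 58 with all 4 markers, 478 with at least 2, and 174 with at least 3 markers at 2 or more UMIs (added after the data were seen). Against the other low-mitochondrial cells, 280 genes were higher and 70 lower. A pseudocount of 1 gave 58 and 3, totals without ribosomal genes 129 lower, members with all 4 markers 171 lower, at least 3 markers at 2 UMIs 451 and 232, and members without the Pax3 and Sox2 cells 149 lower. Against neuroblast-type cells, with 914 and 1055 genes, a pseudocount of 1 gave 345 and 487, and a minimum of 10 UMIs gave 3730 lower; the 45 neuroblast-type cells limit the depth there. Lists with a median log2 ratio of at least 1 numbered 14 against the other low-mitochondrial cells and 6 against neuroblast-type cells, and 2 and 2 with a pseudocount of 1, which shrinks ratios of low genes. Without ribosomal genes, the median against neuroblast-type cells went from -0.11 to 0.22 for proliferation and from -0.18 to 0.14 for RNA-binding genes. A limit of 2 UMIs gave 9.70% excitatory, 0.373% inhibitory, 0% both and 89.9% neither, and thinned cells 14.6%, 1.19%, 0.395% and 83.8%. Except as stated, the cause was not tested. No paired analysis was possible because each age has 1 library.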
